A study of Rattus norvegicus with 60 samples.

Results

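The 9 genes described here present antigen to T cells or respond to interferon: the class I genes RT1-CE12 and B2m, the class II genes RT1-Ba, RT1-Da, RT1-Db1 and Cd74, and the interferon-induced genes Ifit1, Usp18 and Irf7. RT1 is the name of the major histocompatibility complex of the rat. They were read through every probe set that the array annotation gives to exactly 1 of these symbols, which were 14 of 31042 probe sets, or 9 of 14217 named genes. The genes had been picked on measured values of these arrays, namely the differences between LiCl and chow vehicle in hippocampus and cortex. Those differences are therefore given as a description with no test. RNA was measured on 60 Affymetrix arrays, 1 for each sample of hippocampus, cortex or striatum that was microdissected from rats of the strain SD and snap-frozen. After 21 days of treatment there were 5 arrays in each of 12 groups. Rats had received lithium chloride (LiCl, a mood stabilizer) at 0.2% in the chow, with plain chow as the chow vehicle, or lamotrigine (an anticonvulsant that is also a mood stabilizer) at 30 mg/kg by daily injection under the skin, with injections of its vehicle as the injection vehicle. A label that named the tissue as mouse and the delivery as constant went against the organism, the strain and the study design, which were used. Apart from animal numbers in the descriptions, nothing said that the arrays of a group came from separate rats, so each p-value measures the spread between these samples.

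Class I molecules sit on nearly all nucleated cells and show peptides from inside the cell to CD8 T cells. Their heavy chain, such as the product of RT1-CE12, pairs with the light chain beta-2 microglobulin, which B2m encodes. Class II molecules show peptides from engulfed proteins to CD4 T cells and are made chiefly by professional antigen-presenting cells, which in the brain lie mostly at its borders and vessels, while resting microglia make little. RT1-Ba and RT1-Da encode alpha chains and RT1-Db1 a beta chain of class II molecules, and Cd74 encodes the invariant chain that guides them to the compartment where peptide is loaded. The transactivator Ciita, together with the factors that bind the X and Y boxes, drives class II genes and Cd74. Interferons induce Ifit1, which binds viral RNA, Usp18, which removes Isg15 from proteins and dampens the type I interferon receptor, and Irf7, a transcription factor of type I interferon genes.

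Promoters are shown because 3 of the class II genes described below as high together carry the same pair of boxes. RefSeq sequences (build GRCr8) from 250 bases before to 50 bases after the start were at hand for 7 of the 9 genes, RT1-CE12 among them. Ifit1 and Usp18 were not matched. The letters searched, chosen after the sequences had been read, were TNGCAAC for the core of the X box (GTTGCNA on the other strand), ATTGG for the core of the Y box (CCAAT on the other strand) and, for the core of an interferon-stimulated response element, GAAA followed after 2 bases of any kind by a second GAAA, also on both strands. In capitals are the letters that match in the stretches of 4 class II promoters and of the promoters of B2m and Irf7.
RT1-Da (chr20:4515306-4515395, plus strand): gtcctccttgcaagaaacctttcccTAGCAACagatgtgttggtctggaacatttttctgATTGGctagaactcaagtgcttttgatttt
RT1-Ba (chr20:4576954-4577043, plus strand): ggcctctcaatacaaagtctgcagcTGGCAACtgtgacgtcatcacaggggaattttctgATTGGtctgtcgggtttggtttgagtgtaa
RT1-Db1 (chr20:4560212-4560301, minus strand): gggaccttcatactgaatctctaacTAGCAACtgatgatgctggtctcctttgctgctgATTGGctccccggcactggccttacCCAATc
Cd74 (chr18:56527109-56527203, plus strand): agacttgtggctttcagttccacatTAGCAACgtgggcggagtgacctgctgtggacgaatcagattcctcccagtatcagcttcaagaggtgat
B2m (chr3:129549155-129549244, plus strand): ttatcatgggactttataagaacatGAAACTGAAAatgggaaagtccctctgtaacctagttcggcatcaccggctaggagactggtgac
Irf7 (chr1:205800028-205800117, minus strand): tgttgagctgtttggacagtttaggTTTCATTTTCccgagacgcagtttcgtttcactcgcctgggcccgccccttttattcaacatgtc

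In RT1-Da and RT1-Ba the Y box core began 35 bases after the X box core, and in RT1-Db1 34 bases after it. Of 33469 promoters of this length, 0.155% held the X core with a Y core 20 to 45 bases downstream on the same strand. The X core by itself was in 10.4% of them and the Y core in 37.5%. Cd74 carried the X core at position -72 from the start, and its Y core lay outside the stretch shown. The interferon element was in 3.92% of all promoters, at position -150 in B2m and, on the other strand, at position -69 in Irf7. The RT1-CE12 promoter held none of these letters. B2m held a Y core too, outside the stretch shown. The marked letters of different motifs do not overlap, and a match is only a description of the sequence.

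The deposited intensities lay between 6.93 and 28582.4, and each array had a median of 93.5 to 101. Marker genes of neurons put every array in its labelled region: the striatal list, over all probe sets of its genes, averaged 10.5 to 11.2 on the log2 scale in striatum and at most 6.99 elsewhere. Of the 60 arrays, 12 stood over 1 log2 unit above the median of their region in genes of the choroid plexus or meninges, tissues that line the brain. The width of the distribution of log2 values (interquartile range) also differed between groups. In cortex it was 3.29 to 3.44 on the LiCl arrays and 3.56 to 3.61 on the chow vehicle arrays, with no overlap. The animal numbers of the LiCl and chow vehicle rats were checked over the 100 probe sets that differed most between rats of the injection arm. Numbers 38, 39, 54 and 55 occurred in hippocampus only and could not be checked. The others matched across regions with 1 exception. In striatum the chow vehicle arrays numbered 52 and 53 matched each other's number: hippocampus 52 correlated with striatum 53 at 0.85 and with striatum 52 at -0.62, and hippocampus 53 with striatum 52 at 0.90 (100 probe sets, as a description). Both belong to the chow vehicle group, so no comparison between groups rests on it.

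One array of the series carried class II RNA at a level seen in no other, chow vehicle replicate 5 in striatum, which bears the number 53. Cd74 stood there at 11.2 on the log2 scale, while the other 4 chow vehicle arrays had 6.23, 6.30, 6.18 and 6.78. That was 21.9-fold over the median of the other 19 striatal arrays, whose highest value was 8.03. RT1-Da measured 10.3 there, while the other 4 chow vehicle arrays had 6.13, 5.74, 5.73 and 5.94, and it was 20.3-fold over the median of the other 19. For RT1-Ba, probe set 1377334_at read 9.53 on that array and 4.71, 4.56, 4.77 and 4.50 on the other 4, or 26.5-fold over the median of the other 19. In all 3 of these genes the array lay apart from every other striatal array, and its value was read after the data had been seen, with no test.

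RT1-Db1 (1370383_s_at) showed the same array at 8.44, 9.49-fold over the median of the other 19 striatal arrays, and RT1-Ba 1370822_at at 9.20, 6.97-fold over it. The remaining RT1-Db1 probe set, 1370382_at, was among the dimmest, with 2.84 to 3.35 over the other 59 arrays, and read 3.65 on this one. Not every member shared the excess. On that array RT1-CE12 was at 8.95, B2m at 12.4 (1367595_s_at) and 10.4 (1371440_at), Ifit1 at 5.74, Usp18 at 5.85 and Irf7 at 6.24. Those 6 values lay within the ranges of the other 59 arrays. The other pair of RT1-Ba probe sets, 1381593_x_at and 1392334_at, also lacked it, at 8.23 and 8.36, while striatal arrays of the injection vehicle reached 8.21 and 8.43.

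Beyond the members, the array led in Plac8, a gene of immune cells (9.48-fold over the median of the other 19), the complement gene C3 (7.25-fold), the B cell chemoattractant Cxcl13 (4.47-fold), the Fc receptor gene Fcgr3a (3.78-fold) and the macrophage gene Cd68 (2.24-fold). Some interferon-stimulated genes were high on it too, though Ifit1, Usp18 and Irf7 were not: 4 of 38 exceeded every other striatal array, among them Mx1 (2.48-fold over the median) and Ifi27l2b (2.48-fold). Others, such as Oas1b and Herc6, lay below the median of the other 19. The share of all probe sets that exceeded every other striatal array was not counted. With 1 probe set per gene, the mean of that list was 6.06 on the log2 scale, above the 5.66 to 6.04 of the other 19, and the mean of 14 other RT1 genes was 6.22, above 5.80 to 6.16. Microglial genes averaged 8.23 in the same way, within the 7.72 to 8.38 of the other 19, although C1qb and C1qc exceeded all of them. Markers of perivascular macrophages averaged 4.87 (4.79 to 5.25 in the other 19), choroid plexus genes 6.07 (5.79 to 8.95), meningeal genes 6.14 (5.93 to 7.10) and lymphocyte genes 5.13 (4.79 to 5.19). The list of class II presentation genes, which leaves the members out, averaged 7.48 there, within the range of the other 19 (median 7.34). With all probe sets of those genes averaged it was 7.04, just above a highest value of 7.03. The class II regulator Ciita read 5.79 in the probe set that stands for it in the list, within the 5.14 to 5.97 of the other 19, and 5.30 in another of its probe sets, 1.56-fold over the median and above a highest value of 4.86. In bulk tissue, more cells of a type and more RNA per cell cannot be told apart. No other region under either number came near these levels: Cd74 was at 6.56 in hippocampus and 7.09 in cortex of number 53, and at 6.31 in hippocampus and 6.34 in cortex of number 52. In cortex of number 53, RT1-Ba 1370822_at was still the highest of the chow vehicle arrays (6.39, with the next at 6.02), and Cd74 and RT1-Da (6.37) were second in theirs, while RT1-Ba 1377334_at was lowest, at 4.45.

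**Figure D1:**
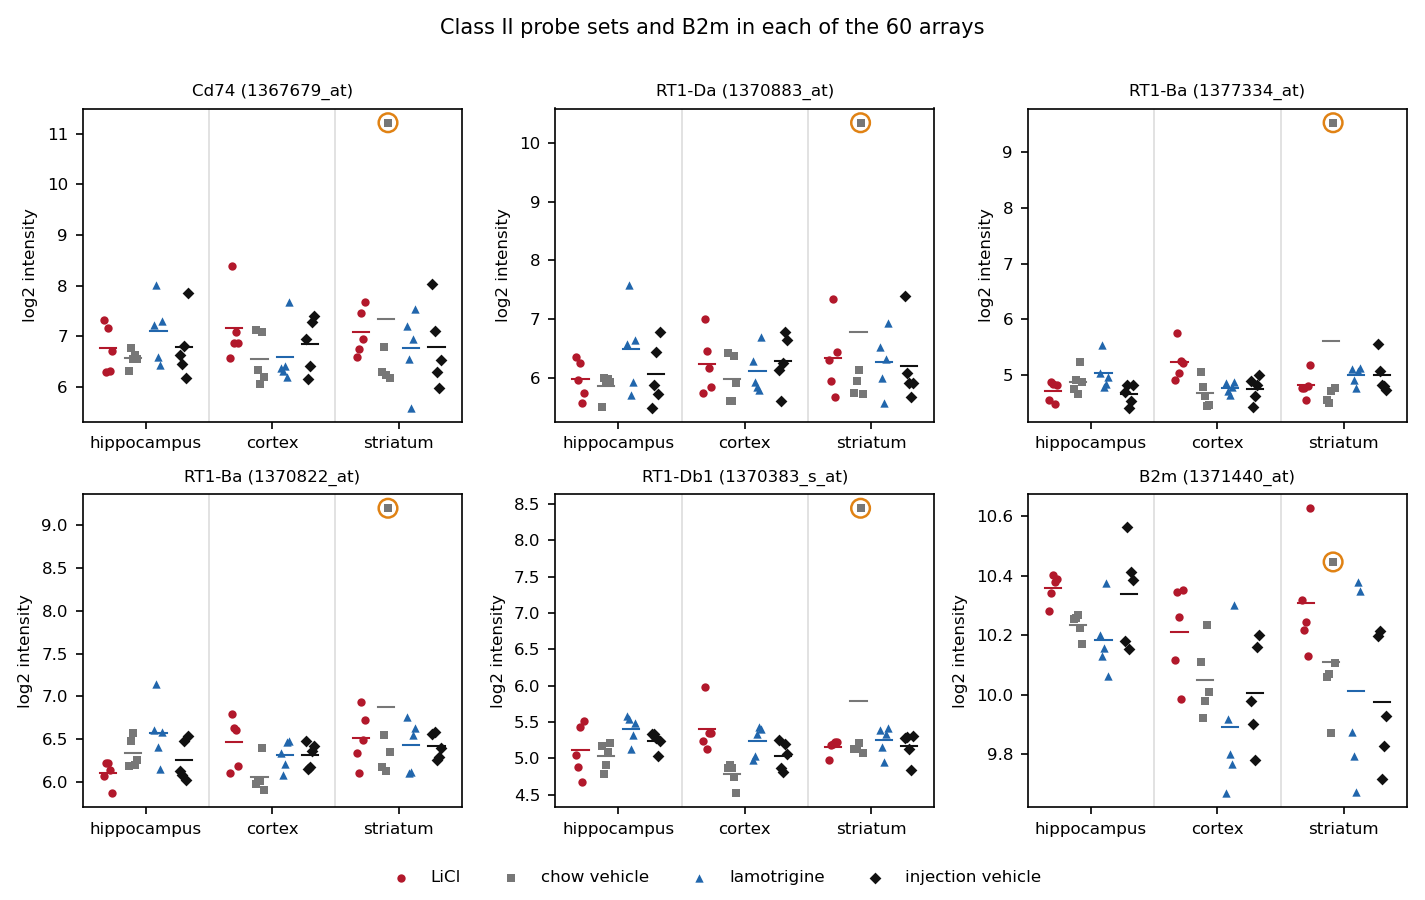
Log2 intensity of 5 class II probe sets (Cd74, RT1-Da, 2 of RT1-Ba, 1 of RT1-Db1) and of B2m 1371440_at in each of the 60 arrays, by region and treatment, with a bar at each group's mean and a ring around chow vehicle replicate 5 of striatum. The ringed array stands at 11.2 for Cd74 and 10.3 for RT1-Da, above every other array, while B2m at 10.4 lies among the others.

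Away from that array Cd74 was the most variable member, with 5.60 to 8.39 on the log2 scale over the other 59 arrays. Values above 7.5 were reached on 8 arrays in all, and 5 of these were among the 12 arrays high in choroid plexus or meningeal genes. Not among those 12 were the array described above, cortex of LiCl replicate 4 (Cd74 at 8.39) and striatum of LiCl replicate 3 (7.68). In the latter 2 arrays the microglial list, at 7.92 and 8.07, was the highest of its region. Their meningeal list was also above the median of its region, at 7.18 against 6.42 in cortex and 6.24 against 6.01 in striatum, but by less than 1 log2 unit. In hippocampus Cd74 was highest on lamotrigine replicate 4 (8.02, with the meningeal list at 8.03) and injection vehicle replicate 3 (7.86, with the list at 7.31). Striatum of injection vehicle replicate 2 had Cd74 at 8.03 with the choroid plexus list at 8.32. The part of these linings, or of microglia, in the Cd74 values was not tested. Cd74 and RT1-Da went together: over the 30 injection-arm arrays of 10 rats, after group means were removed, they correlated at 0.91. RT1-Ba 1377334_at correlated with Cd74 at 0.79 and 1370822_at at 0.78 in the same 30 arrays. These arrays share animals, dissections and borders of tissue, so the correlations are descriptions.

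The 4 RT1-Ba probe sets did not behave as 1 gene. Over the same 30 arrays, 1381593_x_at and 1392334_at correlated with each other at 0.60 and with RT1-CE12 at 0.57 and 0.58, but with RT1-Ba 1377334_at at -0.20 and -0.20. Their levels were also higher, 7.22 to 8.21 and 7.57 to 8.43 on the other 59 arrays, against 4.42 to 5.75 for 1377334_at. Levels of different probe sets cannot be compared as amounts of RNA. RT1 genes include near-identical copies, and probe sets ending in _x_at or _s_at can bind more than 1 of them, so the gene behind RT1-CE12 1388236_x_at, RT1-Ba 1381593_x_at and RT1-Db1 1370383_s_at is uncertain.

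RT1-CE12 is the member in which LiCl and chow vehicle separated in opposite directions in hippocampus and cortex. In hippocampus it read 8.14, 8.18, 8.23, 8.37 and 8.07 on the LiCl arrays, against 8.68, 8.59, 8.49, 8.64 and 8.52 on the chow vehicle arrays. All 5 LiCl arrays lay below all 5 chow vehicle arrays, with a difference of -0.39 ± 0.06 (log2, SE). In cortex it read 8.71, 8.62, 8.72, 8.60 and 8.89 with LiCl, against 8.25, 7.90, 8.18, 8.08 and 8.09 with chow vehicle. Here all 5 LiCl arrays lay above, with a difference of 0.61 ± 0.09. The injection vehicle arrays, from rats without LiCl, read 8.28 to 8.48 in hippocampus and 8.19 to 8.49 in cortex. They differed from chow vehicle in the same directions as LiCl, by -0.18 in hippocampus, without overlap, and by 0.22 in cortex, with overlap. In striatum the LiCl arrays had 8.33, 8.69, 8.73, 8.59 and 8.80, against 8.94, 8.76, 8.69, 8.67 and 8.95 with chow vehicle, which overlapped.

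The RT1-Ba pair that went with RT1-CE12 showed the same directions. In hippocampus 1392334_at differed by -0.31 and 1381593_x_at by -0.28 between LiCl and chow vehicle, and in both the groups overlapped. Injection vehicle differed from chow vehicle there by -0.21 in 1392334_at, with overlap, and by -0.26 in 1381593_x_at, without overlap. Its differences in cortex were 0.10 and 0.19, both with overlap. In cortex 1392334_at read 8.21, 7.98, 8.30, 8.07 and 8.30 with LiCl, against 7.76, 7.77, 7.76, 7.70 and 7.78 with chow vehicle, a difference of 0.42 ± 0.08 without overlap. Cortex 1381593_x_at read 8.05, 7.81, 8.03, 8.01 and 8.19 with LiCl, against 7.56, 7.54, 7.72, 7.45 and 7.22 with chow vehicle, a difference of 0.52 ± 0.10, again without overlap. The width of the arrays' distributions differed between the same groups, without overlap in cortex and with slight overlap in hippocampus (3.56 to 3.63 with LiCl and 3.43 to 3.56 with chow vehicle). With the width as a covariate, the RT1-CE12 difference was -0.28 ± 0.09 in hippocampus and 0.24 ± 0.12 in cortex, that of 1392334_at -0.03 and 0.10, and that of 1381593_x_at -0.05 and 0.04. In cortex the width and LiCl cannot be told apart, so these values do not separate them.

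**Figure D2:**
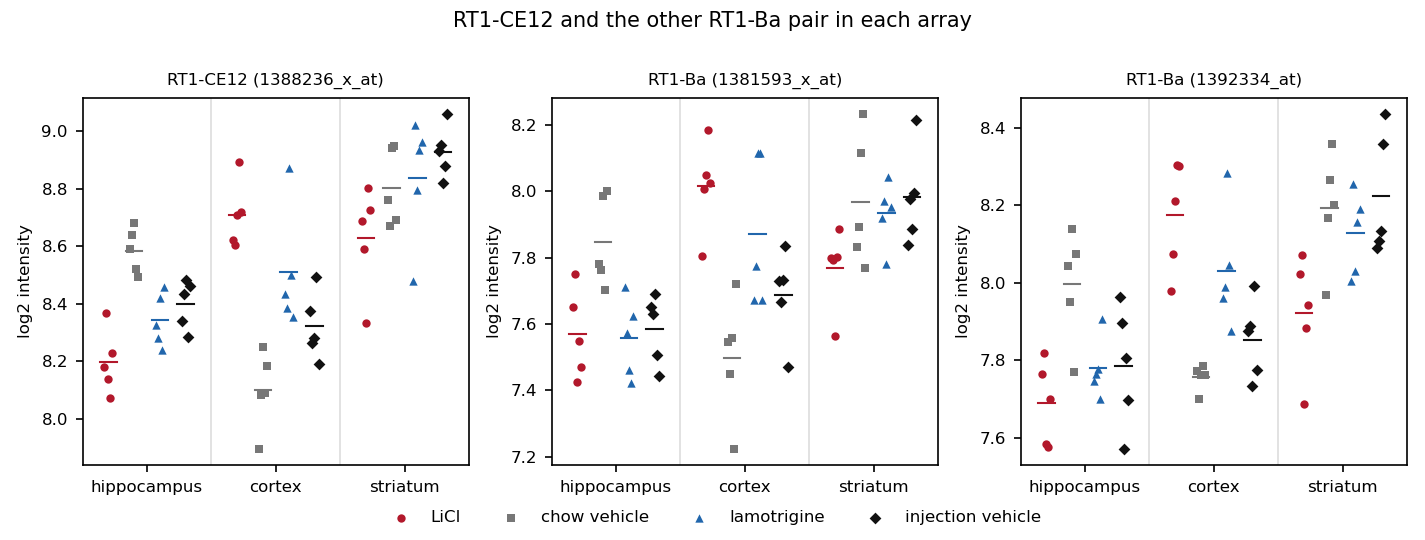
Log2 intensity of RT1-CE12 and of the RT1-Ba probe sets 1381593_x_at and 1392334_at in each array, by region and treatment, with a bar at each group's mean (n = 5). In RT1-CE12 the LiCl arrays lie below the chow vehicle arrays in hippocampus and above them in cortex, and striatum of the injection vehicle holds the highest array at 9.06.

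Among the other class II members in cortex, RT1-Db1 (1370383_s_at) read 5.12, 5.24, 5.35, 5.98 and 5.36 with LiCl, against 4.86, 4.87, 4.52, 4.91 and 4.75 with chow vehicle. The groups did not overlap, and the difference was 0.63 ± 0.14. Cd74 read 6.88, 6.57, 6.88, 8.39 and 7.08 with LiCl, against 6.05, 7.12, 6.19, 6.34 and 7.09 with chow vehicle, a difference of 0.60 ± 0.32 that was 0.29 when LiCl replicate 4 was left out. RT1-Ba 1377334_at differed by 0.55, RT1-Ba 1370822_at by 0.40 and RT1-Da by 0.26, each with overlap. B2m differed by 0.15 and 0.16 in its 2 probe sets. Of the interferon-induced members in cortex, Ifit1 read 5.80, 5.54, 5.88, 5.26 and 6.07 with LiCl, against 4.95, 4.94, 5.37, 4.95 and 5.28 with chow vehicle, a difference of 0.61 ± 0.17 with overlap. Usp18 differed by 0.38 and Irf7 by 0.14. For these members too, the width of the arrays and LiCl cannot be told apart in cortex. Injection vehicle rats, without LiCl, averaged 5.04 for RT1-Db1 1370383_s_at, 5.41 for Ifit1 and 5.75 for Usp18 in cortex. Chow vehicle rats averaged 4.78, 5.10 and 5.68, and these groups overlapped.

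Over the 14 probe sets, 13 were higher and 1 lower with LiCl in cortex (median 0.41), and 6 were higher and 8 lower in hippocampus (median -0.12). Groups did not overlap for 4 probe sets in cortex and 2 in hippocampus, the lower RT1-CE12 and the higher B2m 1371440_at. How many of all probe sets had groups without overlap was not counted, so nothing is read from these counts. Over all probe sets 13.4% were called in cortex and 0.235% in hippocampus (limma, Benjamini-Hochberg adjusted p under 0.05), figures from which nothing is read here, since the members were picked on these differences. Lists of other genes moved beside them in cortex. All 12 meningeal genes were higher with LiCl (median 0.42), with list means of 6.23 to 7.52 on the LiCl arrays and 5.97 to 6.85 on the chow vehicle arrays. All 13 microglial genes (median 0.15), 29 of 38 interferon-stimulated genes (median 0.07), 9 of 9 lymphocyte genes (median 0.18) and 11 of 14 other RT1 genes (median 0.17) were also higher, as were 49.8% of all probe sets. In hippocampus 8 of 38 interferon-stimulated genes and 3 of 12 meningeal genes were higher, beside 50.2% of all probe sets. The part of these lists in the members' differences was not tested. For the lists too, the width of the arrays and LiCl cannot be told apart in cortex. The shares of all probe sets were not matched to the levels of the list genes. The lymphocyte list was dim, with a median of 4.71 on the log2 scale over the cortex arrays (all probe sets of its genes). The injection vehicle shares its chow vehicle control with LiCl in these comparisons. Against that control 5 members were higher and 9 lower in hippocampus, where 44.7% of all probe sets were higher. In cortex 12 were higher and 2 lower, where 46.9% of all probe sets were higher.

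Striatum was not used to pick the genes, so LiCl could be tested there. By their numbers, though, its LiCl and chow vehicle arrays came from the same rats as those of cortex. The test is therefore not independent of that choice. No member was called, 0 of 14 beside 0% of all probe sets (limma, adjusted p under 0.05). An unadjusted p under 0.05 was found for 3 of the 14, beside 3828 of all 31042 probe sets. Of the 14, 2 were higher and 12 lower, with a median of -0.24, while 44.6% of all probe sets were higher. Several of the lower values came from the chow vehicle array with high class II RNA. Cd74 read 7.47, 6.60, 7.68, 6.76 and 6.95 with LiCl, and its difference from chow vehicle was -0.25 ± 0.69 with all arrays and 0.72 ± 0.37 without chow vehicle replicate 5 (adjusted p = 0.5367). RT1-Da was at -0.44 with all arrays and 0.45 without that array, RT1-Ba 1377334_at at -0.80 and 0.18, RT1-Ba 1370822_at at -0.36 and 0.22, and RT1-Db1 1370383_s_at at -0.63 and 0.03. So 5 of the class II probe sets turned direction when 1 array was left out, and none was called either way. The difference with the lowest adjusted p was that of RT1-Db1 1370382_at, whose LiCl arrays lay below all chow vehicle arrays (3.04, 3.06, 3.07, 3.14 and 3.00 against 3.21, 3.19, 3.18, 3.32 and 3.65, difference -0.25 ± 0.07, adjusted p = 0.2136). In 1 fit of all 60 arrays it passed (adjusted p = 0.02902), on a probe set near the lowest levels of the array. The directions of RT1-CE12 (-0.17 ± 0.10, adjusted p = 0.4766) and of RT1-Ba 1392334_at (-0.27 ± 0.09, adjusted p = 0.2667) were those of hippocampus, but neither was called.

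**Figure D3:**
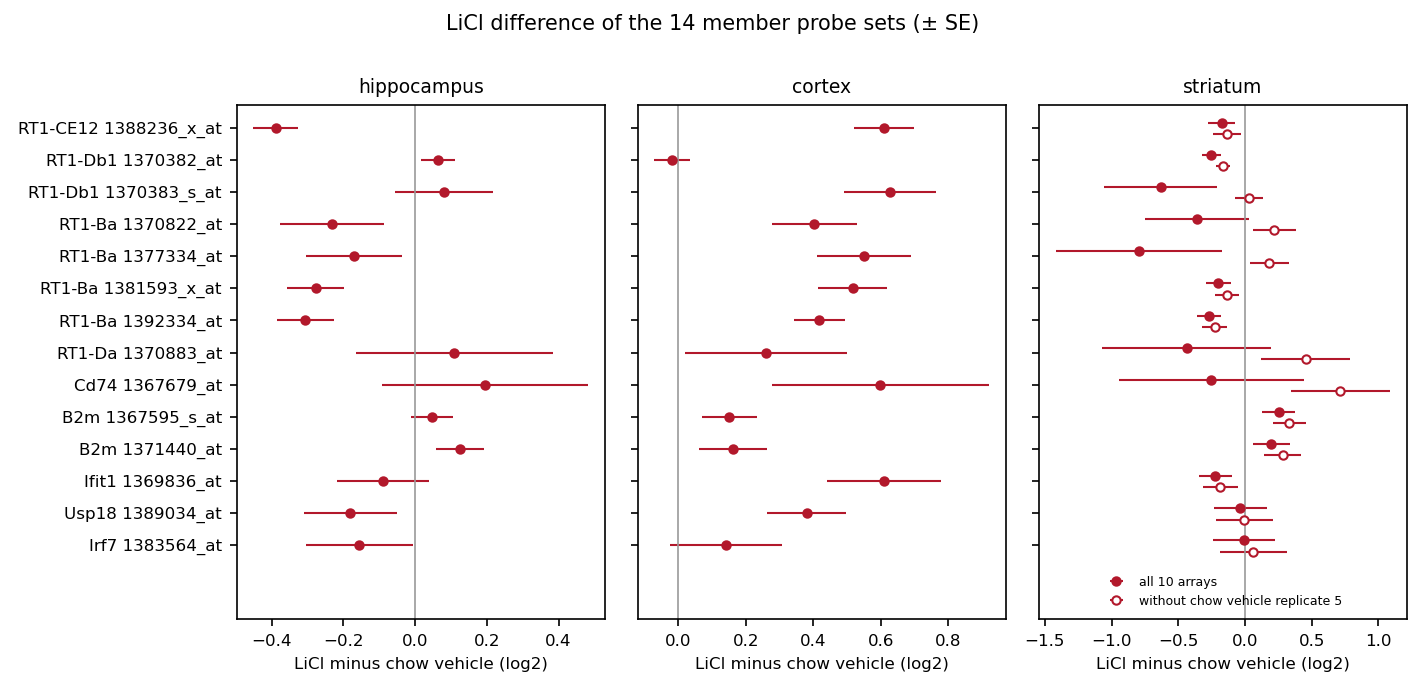
LiCl minus chow vehicle (log2, ± SE, n = 5 each) for the 14 probe sets in hippocampus, cortex and striatum, where open points leave out chow vehicle replicate 5. In cortex 13 of 14 points lie above 0, in hippocampus RT1-CE12 lies lowest, and in striatum the open points of Cd74, RT1-Da and RT1-Ba 1377334_at lie on the other side of 0 from the filled ones.

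Lamotrigine changed none of the members by this test. In hippocampus 0 of 14 were called beside 0.00322% of all probe sets (limma, adjusted p under 0.05). In cortex and in striatum 0 of 14 were called, each beside 0%. An unadjusted p under 0.05 was found for 3, 2 and 0 members, beside 3063, 1799 and 1193 of all 31042 probe sets. Lamotrigine and injection vehicle arrays overlapped for every member in every region. The largest differences were in hippocampus. RT1-Da read 5.70, 6.58, 6.65, 7.57 and 5.93 with lamotrigine, against 6.44, 5.49, 6.79, 5.88 and 5.72 with injection vehicle, a difference of 0.42 ± 0.28 (adjusted p = 0.6511). RT1-Ba 1377334_at read 4.79, 5.03, 4.96, 5.54 and 4.84 with lamotrigine, against 4.42, 4.70, 4.82, 4.82 and 4.53, a difference of 0.37 ± 0.13 (adjusted p = 0.3558). The highest lamotrigine value of both came from replicate 4, the array whose meningeal list stood at 8.03. The difference between lamotrigine and its vehicle was not called as differing between regions for any member (0 of 14, beside 0% of all probe sets, limma F test). At an unadjusted p under 0.05 there were 0 members, beside 1248 of all 31042 probe sets. The injection vehicle against chow vehicle in striatum also called 0 of 14, beside 6.83% of all probe sets. There 1 member had an unadjusted p under 0.05, beside 6289 of all 31042 probe sets.

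The regions did differ in some members. Injection vehicle rats gave all 3 regions, and their arrays were compared within rats. In striatum RT1-CE12 read 8.82, 8.93, 9.06, 8.95 and 8.88, against 8.48, 8.34, 8.46, 8.43 and 8.28 in hippocampus and 8.28, 8.37, 8.19, 8.26 and 8.49 in cortex. Striatum lay above both other regions without overlap, by 0.53 ± 0.09 over hippocampus (adjusted p = 6.598e-05) and by 0.61 ± 0.09 over cortex (adjusted p = 1.138e-05). Hippocampus and cortex overlapped. RT1-Ba 1392334_at read 8.13, 8.09, 8.43, 8.11 and 8.36 in striatum, against 7.57, 7.96, 7.70, 7.90 and 7.81 in hippocampus and 7.73, 7.88, 7.77, 7.89 and 7.99 in cortex. It was higher in striatum by 0.44 ± 0.08 over hippocampus (adjusted p = 0.0001604) and by 0.37 over cortex (adjusted p = 0.0009198), and in 5 of 5 rats each time. RT1-Ba 1381593_x_at rose by 0.40 over hippocampus (adjusted p = 0.003005) and by 0.29 over cortex (adjusted p = 0.02441), the second of which was lost without the rats of replicates 3 and 4 in turn.

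The striatal arrays also had the narrowest distributions, 3.37 to 3.46 against 3.55 to 3.64 in hippocampus and 3.52 to 3.58 in cortex. With that width as a covariate only the rise of RT1-CE12 over cortex was called (0.41 ± 0.11, adjusted p = 0.004169). Its difference from hippocampus was then 0.22 ± 0.14 (adjusted p = 0.2998), and RT1-Ba 1381593_x_at turned to -0.08 over hippocampus. In these rats the width of striatum did not overlap with that of either other region, so width and region cannot be told apart in the injection vehicle arrays.

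The other members called between regions were few. RT1-Ba 1377334_at was 0.34 higher in striatum than in hippocampus (adjusted p = 0.0368), a call lost without the rat of replicate 2 (0.21, adjusted p = 0.2185) and without those of replicates 1 and 5. It was also lost without the arrays high in choroid plexus or meningeal genes (0.21, adjusted p = 0.2931) and after quantile normalization (0.23, adjusted p = 0.1778). The dim RT1-Db1 1370382_at was 0.15 higher in striatum than in cortex (adjusted p = 0.02229), which was lost without the rats of replicates 2, 4 and 5 in turn and without the arrays high in choroid plexus or meningeal genes (adjusted p = 0.08333). Without those arrays the second B2m probe set, 1367595_s_at, was called lower in striatum than in hippocampus (-0.30, adjusted p = 0.01084) and than in cortex (-0.23, adjusted p = 0.01177). B2m 1371440_at was lower in striatum than in hippocampus (-0.36, adjusted p = 0.01188), which was lost without the rat of replicate 5 (-0.31, adjusted p = 0.06281). It was also lower in cortex than in hippocampus (-0.34, adjusted p = 0.02344), and read 9.78, 9.98, 10.20, 9.90 and 10.16 in cortex, against 10.15, 10.18, 10.39, 10.56 and 10.41 in hippocampus. Cortex was lower in 5 of 5 rats, though the groups overlapped, and the call was lost without the rats of replicates 1 and 4 in turn. Ifit1 read 5.90, 5.55, 6.20, 5.70 and 5.53 in striatum, against 5.58, 5.44, 5.66, 5.12 and 5.33 in hippocampus and 5.70, 5.79, 5.53, 5.01 and 5.03 in cortex. It was 0.35 higher in striatum than in hippocampus (adjusted p = 0.03174), in 5 of 5 rats, and 0.36 higher than in cortex (adjusted p = 0.02883), in 4 of 5 rats. The first call was lost without the rats of replicates 1, 3 and 4 in turn and the second without those of 3, 4 and 5. Quantile normalization also ended the first (0.28, adjusted p = 0.08335). Cd74, RT1-Da, Usp18 and Irf7 were not called between any pair of regions, and the difference of Cd74 between striatum and hippocampus was 0.00 ± 0.33.

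In all, 6 of 14 probe sets were called between striatum and hippocampus, beside 43.8% of all probe sets, 5 of 14 between striatum and cortex, beside 39.6%, and 1 of 14 between cortex and hippocampus, beside 34.6%. The first 2 shares are near those of all probe sets and the last below.

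**Figure D4:**
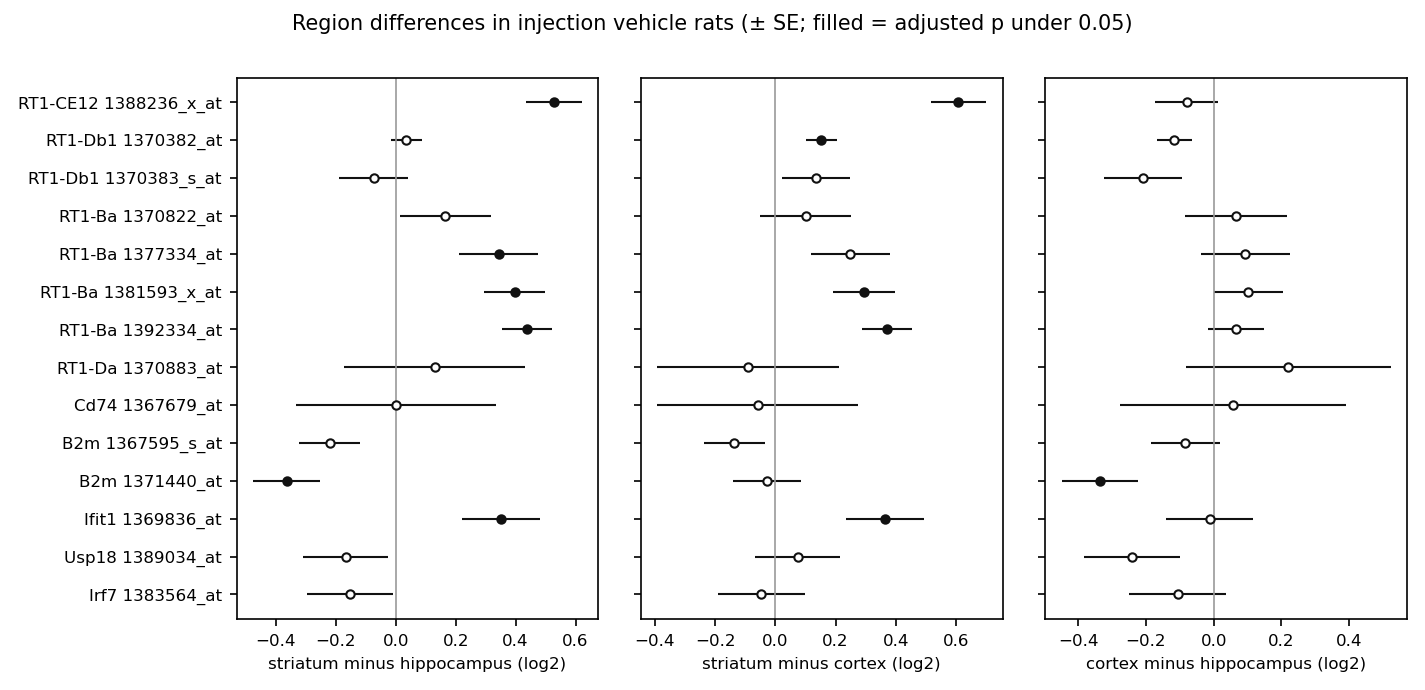
Differences between regions (log2, ± SE) of the 14 probe sets in the 5 rats of the injection vehicle, with filled points at an adjusted p under 0.05. RT1-CE12 stands at 0.53 for striatum minus hippocampus and 0.61 for striatum minus cortex, and Cd74 lies at 0 with the widest bars.

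Other genes of the same pathways also differed between regions in both directions. Of all probe sets, 34.6% were called between cortex and hippocampus and 43.8% between striatum and hippocampus. The counts of list genes are given beside these shares, and nothing is read from them. Of 13 genes of class I antigen processing, which cut peptides and load them, 6 were lower in cortex than in hippocampus and 0 higher: the immunoproteasome subunit Psmb9 fell by 0.62 (adjusted p = 0.005668), the proteasome activator Psme1 by 0.50 (adjusted p = 0.004468), Pdia3 by 0.35 (adjusted p = 0.00195) and the peptide-loading protein Tapbp by 0.29 (adjusted p = 0.002717). Of 12 class II genes other than the members, 3 were higher and 2 lower in striatum than in hippocampus, with Cd4 at 0.69 (adjusted p = 1.085e-05), the transactivator Ciita at 0.34 (adjusted p = 0.009828) and the X box factors Rfxap at -0.48 (adjusted p = 2.205e-05) and Rfx5 at -0.24 (adjusted p = 0.001792). Of 38 interferon-stimulated genes, 4 were higher and 7 lower there, led by Ifi27 (-1.19, adjusted p = 4.467e-09), Mx1 (-0.93, adjusted p = 0.0004581), the signalling factor Irf9 (-0.91, adjusted p = 2.963e-09) and Ifit2 (-0.86, adjusted p = 9.149e-06). Ifit1, which lies in the same family as Ifit2, was higher in striatum. Of 14 other RT1 genes, 2 were higher and 5 lower in striatum than in hippocampus, among them RT1-N2 (-1.06, adjusted p = 0.001687) and RT1-A (-0.91, adjusted p = 1.066e-05). None of these lists had a gene called for lamotrigine in any region or for LiCl in striatum. In each of those comparisons at most 1 of all 31042 probe sets was called, so nothing about the lists is read from it.

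Rats differed in several of the other RT1 genes, and no member was called. Across the 10 rats of the injection arm, with 3 regions each, 0 of 14 member probe sets were called between animals. Of all probe sets 10.2% were called (limma F test, adjusted p under 0.05). For 14 probe sets, 0 calls is near that share, so nothing is read from it. Beside 7682 of all 31042 probe sets, 2 members had an unadjusted p under 0.05. These were Usp18 (adjusted p = 0.1203) and Ifit1 (adjusted p = 0.1381), and Ifit1 passed with the width of the arrays as a covariate (adjusted p = 0.04685). RT1-CE12 had an adjusted p of 0.8101. Of the 14 other RT1 genes 8 were called, led by RT1-T24-3 (F = 20.6, adjusted p = 2.877e-06) and RT1-T24-4 (adjusted p = 3.656e-06), and of the 38 interferon-stimulated genes 4, led by Ifi27 (F = 55.9, adjusted p = 6.666e-10). Ifi27 read 9.53 and 9.13 in hippocampus and cortex of rat 14, and 11.48 and 11.12 in the same regions of rat 11.

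Irf7 and Usp18 were high in the same arrays. They correlated at 0.81 over the 30 injection-arm arrays of 10 rats once group means were removed. Irf7 was high in some rats across regions. Rat 35 (LiCl) had 6.53, 6.74 and 6.67 in hippocampus, cortex and striatum, the highest LiCl array of each region, and rat 51 (chow vehicle) had 6.67, 6.54 and 6.56, the highest chow vehicle array of cortex and striatum. The hippocampus of rat 55, which has no other region, was at 6.81. In the injection arm the high values were not shared by all regions: rat 14 (lamotrigine) had Irf7 at 6.62 and Usp18 at 6.72 in striatum, but Irf7 at 6.26 and 5.82 in hippocampus and cortex. The F test for differences between the 10 injection-arm rats did not call Irf7 (adjusted p = 0.4374). Rats 35 and 51 were singled out after their values had been seen.

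**Figure D5:**
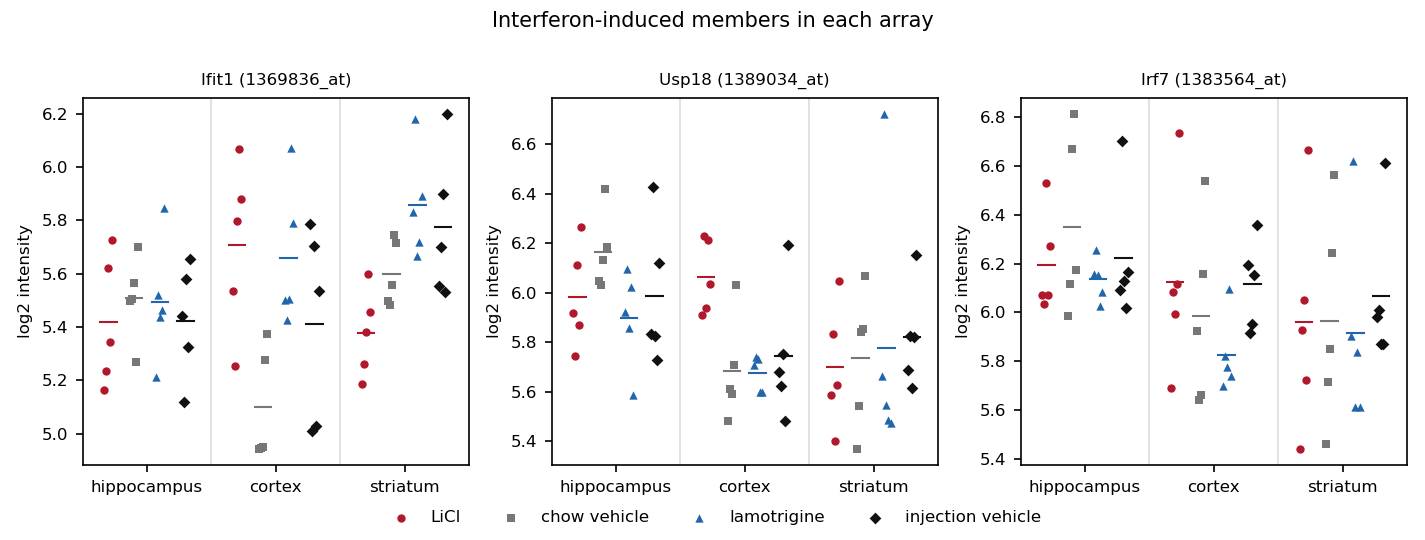
Log2 intensity of Ifit1, Usp18 and Irf7 in each array, by region and treatment, with a bar at each group's mean (n = 5). Usp18 and Irf7 each have single arrays well above their group, such as striatum of lamotrigine replicate 4 at 6.72 for Usp18 and 6.62 for Irf7, and Ifit1 has its lowest group mean in cortex with chow vehicle.

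The genes whose pattern was most like that of a member were read over the same 30 arrays after group means were removed, as a description. For Cd74 they were RT1-Da (r = 0.91), the galectin gene Lgals1 (0.82) and the cytoskeletal gene Tln1 (0.82). For RT1-CE12 they were the lipase gene Lipe (0.78), a probe set of the interferon receptor gene Ifnar1 (0.74) and C1qtnf12 (0.73). For Irf7 they were Usp18 (0.81), Ccno (0.74) and Egfl7 (0.71). The 2 B2m probe sets correlated with each other at 0.93 and with Cd74 at 0.63 and 0.56.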

How the data were processed

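The authors deposited a single table of linear intensities for 31099 probe sets, which per the submitters' processing notes came from RMA in R 2.7.2. The plan had assumed log2 values, so the log2 of the deposited intensities was taken, with no pseudocount (0). Leaving out 57 control probe sets, 31042 were tested, of which 20826 had 1 gene symbol in the array annotation, 436 several and 9780 none. Each group held 5 arrays, and their number limits how precise a difference can be.

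Treatments were compared within each region by limma 3.58.1 in R 4.3.3 (tables were read by the package data.table, release 1.17.8) with group means and an intensity trend, and p-values were Benjamini-Hochberg adjusted over all 31042 probe sets. Regions, rats and the lamotrigine effect by region were compared in the 30 injection-arm arrays with the animal as a block. There the regions of 1 rat share its number in the labels. Settings were tested on simulated data with 200 changed probe sets. Alternatives were quantile normalization, centring, the interquartile range as a covariate, leaving out the 30% dimmest probe sets, no trend, leaving out arrays high in choroid plexus or meningeal genes, the replicate number as a block, no block, 1 fit of all arrays, and each replicate left out in turn. Leaving out chow vehicle replicate 5 of striatum for itself was chosen after seeing the data.

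The members and gene lists were chosen with earlier results of these data known. Counts of list genes, and list means where the text says so, take 1 probe set per gene, that with the highest mean. Other list means average all probe sets of the genes. The text names every member probe set, up to 4 called genes per list and comparison with the largest difference, and the 3 genes most like a member by Pearson correlation. Other genes, arrays and rats were chosen after their values were seen. Promoters came from RefSeq (GRCr8).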

Additional observations from a re-analysis of the deposited data

Results flagged for a closer look

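Within each group of 5 arrays, the highest or lowest array was set against the others by Dixon's test, in 168 groups of a probe set, region and treatment. It stood apart in 18. Chance flags about 1 in 20 groups when they are independent, but these share arrays, and several probe sets go together. How often arrays stood apart over all probe sets was not counted, so nothing is read from the 18. In striatum of the chow vehicle, replicate 5 was the highest array for Cd74 (11.21), RT1-Da (10.34), RT1-Ba 1377334_at (9.53) and 1370822_at (9.20) and RT1-Db1 1370383_s_at (8.44). In cortex with LiCl, replicate 4 was highest for Cd74 (8.39) and RT1-Db1 1370383_s_at (5.98). In cortex with lamotrigine, replicate 3 was highest for Cd74 (7.69) and B2m 1367595_s_at (12.36), and replicate 1 for RT1-CE12 (8.87). Striatum of injection vehicle replicate 2 was highest for RT1-Da (7.39) and that of replicate 3 for Irf7 (6.61). Hippocampus of injection vehicle replicate 4 was highest for Irf7 (6.70), and striatum of lamotrigine replicate 4 for Usp18 (6.72). In cortex of the chow vehicle, replicate 5 was highest for RT1-Ba 1370822_at (6.39) and replicate 4 lowest for RT1-Ba 1392334_at (7.70). The lowest arrays of their groups were hippocampus of chow vehicle replicate 2 for RT1-Da (5.50) and striatum of LiCl replicate 2 for RT1-Db1 1370383_s_at (4.98).

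RT1-CE12 was higher with LiCl than with chow vehicle in cortex and lower in hippocampus, with every LiCl array on its side of every chow vehicle array. The cortex difference minus the hippocampus difference came to 1.00 on the log2 scale. That difference was not tested, since the gene had been picked on these values. Injection vehicle arrays differed from the same chow vehicle arrays in the same directions, by 0.22 in cortex and -0.18 in hippocampus.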

How the results depend on the processing

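Of 3416 member results under the alternatives, 3337 counted as unchanged. A called result had to stay called in its direction. An uncalled result had only to stay uncalled, even if its direction turned. The differences given without a test had to shift by less than the SD of their chow vehicle arrays. With the array's interquartile range as a covariate, 4 called differences turned. RT1-Ba 1381593_x_at went to -0.0756 for striatum minus hippocampus and to -0.000421 for striatum minus cortex. For striatum minus hippocampus, B2m 1371440_at went to 0.00661 and Ifit1 to -0.0614. That covariate left 0 member calls for striatum minus hippocampus (6 without it), 0 for cortex minus hippocampus (1), 1 for striatum minus cortex (5) and gave 1 for animal differences (0). Member calls for cortex minus hippocampus were 2 with centred arrays and 0 with no replicate block. In 1 fit of all arrays 1 member, RT1-Db1 1370382_at, was called in striatum for LiCl and 1, the same probe set, for injection vehicle, both against chow vehicle.

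Over all probe sets, LiCl in hippocampus called 73, but 27 after quantile normalization, 0 with the spread covariate, 127 with no trend, 6 without the arrays high in choroid plexus or meningeal genes, 28 with a replicate block and 136 in 1 fit. LiCl in cortex called 4164, but 1354 after quantile normalization, 0 with the covariate and 2722 without those arrays. LiCl in striatum called 0, but 2 with the covariate, 3 with no trend and 116 in 1 fit. Lamotrigine in hippocampus called 1, but 0 with the covariate, without those arrays or with the replicate block, and 2 in 1 fit. Injection vehicle against chow vehicle called 5747 in hippocampus, but 1230 with the covariate and 3397 without those arrays, and 2119 in striatum, but 3367 in 1 fit. Striatum minus hippocampus called 13587, but 6302 with the covariate and 8759 without those arrays. Animal differences called 3176, but 1018 without those arrays. The cause of these changes was not tested.

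Leaving out each replicate in turn gave 5 to 256 calls for LiCl in hippocampus (256 without chow vehicle replicate 5, 5 without LiCl replicate 5), 2094 to 3974 for LiCl in cortex (2094 without LiCl replicate 5) and 0 to 8 for LiCl in striatum (8 without LiCl replicate 5). It gave 0 to 3 for lamotrigine in hippocampus and 0 to 2 in cortex, and 1633 to 3423 for animal differences (1633 without lamotrigine replicate 2). Member calls were 0 to 1 for cortex minus hippocampus (0 without injection vehicle replicate 1 or 4), 4 to 6 for striatum minus hippocampus and 2 to 5 for striatum minus cortex (2 without replicate 4, 3 without replicate 5).

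Same-numbered drug and vehicle arrays shared only a number (correlations of their deviations down to -0.54), and with the replicate block 0 members were called for a drug in any tested comparison. With 5 arrays per group, a member that was not called may still differ.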
